A study of Homo sapiens with 20 samples.

Results

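HMGA2 and HMGA1 are the 2 genes described here, out of 19962 in a table of gene counts from PAR-CLIP libraries of IGF2BP3. They were taken by their gene identifiers, and the pair was selected on the gene counts of the tunicamycin and DMSO libraries, in which HMGA2 was higher after 1 h of tunicamycin and lower after 4 h. Those values are given below as a description with no test. The comparison of arsenite with PBS did not enter that choice and was tested.

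HMGA1 and HMGA2 are small chromatin proteins of the high mobility group A family, which bind AT-rich DNA through short motifs called AT hooks and bend it, so that transcription factors can assemble. HMGA2 is made mainly in the embryo and returns in many carcinomas, and the end of its mRNA is a textbook target of the let-7 microRNAs. IGF2BP3 is an oncofetal protein of the cytoplasm that binds mRNA and is known to protect some of its targets, HMGA2 among them, from let-7.

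All groups were HCT116 cells, an epithelial line from a human colorectal carcinoma, with the genotype Tet-OsTIR1-PURO, which expresses the plant protein OsTIR1 conditionally. In PAR-CLIP, cells take up 4-thiouridine, here 100 µM for 15 h, ultraviolet light of 365 nm (0.15 J/cm2) links it to bound protein, and the linked bases show up as T-to-C changes (conversions). There were 5 conditions, with 3 anti-IGF2BP3 libraries and 1 control IgG library each: PBS for 2 h, 250 µM arsenite for 2 h, DMSO for 4 h, and 5 µg/mL tunicamycin (TM) for 1 h or 4 h. Arsenite causes oxidative stress, and tunicamycin blocks N-linked glycosylation and stresses the endoplasmic reticulum. The 1 h treatment shares the 4 h vehicle as its control.

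The anti-IGF2BP3 libraries held between 130478 and 1568406 gene counts and the IgG libraries between 5981 and 17503. PBS and arsenite formed one set of libraries, and DMSO and TM were split over 2 further sets, replicates 1 and 2 in one, replicate 3 and the IgG libraries in the other, so set and condition cannot be told apart between the arsenite and the tunicamycin experiments. The labels do not say that replicates were separate cultures, so p-values measure the spread between libraries. RNA abundance was not analysed here, so counts are RNA recovered with the antibody, and fewer cells with a message and less of it per cell cannot be told apart. As a check of the cell label, 7 of 8 epithelial and intestinal markers had clusters of crosslinked reads (1338 reads in all, CDX1 at 0), and 1 of 6 markers of other cells did (CD68, 15 reads, with PTPRC, COL1A1, PECAM1, DCN and ALB at 0). The check is loose, since VIL1 had 5 reads in 1 library, fewer than CD68, and KRT18 had 40 in 4 libraries. Of the 8 markers 0 had clusters in all 15 libraries. The share of all genes with a cluster is not given here.

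The sequences on which the pair can be compared are the let-7 microRNAs and their matches. The mature forms of 9 microRNAs in RefSeq (GRCh38.p14) share the seed GAGGUAG, bases 2 to 8, which is in capitals below for 3 of them.
hsa-let-7a-5p: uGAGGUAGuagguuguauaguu
hsa-let-7i-5p: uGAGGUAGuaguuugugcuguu
hsa-miR-98-5p: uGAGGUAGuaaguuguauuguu
The seed match CTACCTC was searched on the RNA strand in the cluster sequences of both genes. It occurred 4 times in HMGA2 and 1 time in HMGA1, and each match is shown in capitals inside 30 bases of the deposited cluster sequences, on the plus strand of hg38.
HMGA2, chr12:65963299-65963328: ccaacgttcgatttCTACCTCagcagcagt
HMGA2, chr12:65964534-65964563: cccactactcaataCTACCTCtgaatgtta
HMGA2, chr12:65964946-65964975: tgacttgcaaagacCTACCTCcagacttca
HMGA2, chr12:65965799-65965828: atcaaaacacactaCTACCTCttaagtccc
HMGA1, chr6:34245830-34245859: cctctgttcacaaaCTACCTCtggacagtt

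In RefSeq's GRCh38.p14 table HMGA2 (ENSG00000149948) lies at chr12:65824460-65966291 and HMGA1 (ENSG00000137309) at chr6:34236873-34246231, both on the plus strand. The matches in HMGA2 lie 2978, 1743, 1331 and 478 bases before the end of the gene, and the match in HMGA1 387 bases before its end. Exon and UTR annotation was not used here.

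HMGA2 followed the treatments in opposite directions at the tunicamycin time points. In CPM (counts scaled by library size and TMM factor), its level was 1457, 1576 and 1603 in the DMSO libraries, 2291, 2067 and 1993 at TM 1 h, and 1032, 885 and 945 at TM 4 h. All TM 1 h libraries lay above all DMSO libraries, and all TM 4 h libraries lay below them. The means were 1545 ± 77.8 in DMSO, 2117 ± 154.9 after 1 h and 954 ± 73.7 after 4 h of TM (SD, n = 3). The edgeR fit over 8343 genes put HMGA2 1.35-fold higher at TM 1 h, a log2 fold change of 0.44 (SE 0.074), and at 0.610-fold of DMSO at TM 4 h, a log2 fold change of -0.71 (SE 0.075). Between the time points the log2 fold change was -1.15 (SE 0.076), or 0.451-fold. HMGA2 ranked 14th among the most negative changes between the time points, 439th among the most positive at TM 1 h against DMSO and 91st among the most negative at TM 4 h. These ranks restate the choice of the gene and support nothing. Within replicates 1 and 2, one library set, the values against DMSO were 0.50 (SE 0.088) and -0.68 (SE 0.090). Over all genes 0.551% were called at TM 1 h, 5.11% at TM 4 h and 11.6% between the time points, at an edgeR adjusted p under 0.05. Groups did not overlap in 15.7% of 7558 genes at TM 1 h against DMSO, in 21.2% at TM 4 h against DMSO and in 28.3% between the time points.

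HMGA1, the paralogue, moved less in the same libraries. Its level was 4799, 4630 and 4692 CPM in DMSO, 5947, 4731 and 4377 CPM at TM 1 h, and 4525, 4434 and 3538 CPM at TM 4 h. The TM 1 h values lay on both sides of DMSO, while those of TM 4 h were all below DMSO, by a small margin in 2 of 3. The means were 4707 ± 85.6, 5018 ± 823 and 4166 ± 545 CPM (SD, n = 3). The log2 fold change was 0.08 (SE 0.078) at TM 1 h and -0.18 (SE 0.077) at TM 4 h, with -0.26 (SE 0.078) from 1 h to 4 h, where the groups overlapped. Replicate 1 set the sign at TM 1 h, since without it the log2 fold change was -0.05. Without TM 4 h replicate 3 the value at 4 h was -0.07. Within replicates 1 and 2 the values were 0.17 (SE 0.075) at TM 1 h and -0.07 (SE 0.074) at TM 4 h.

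**Figure D1:**
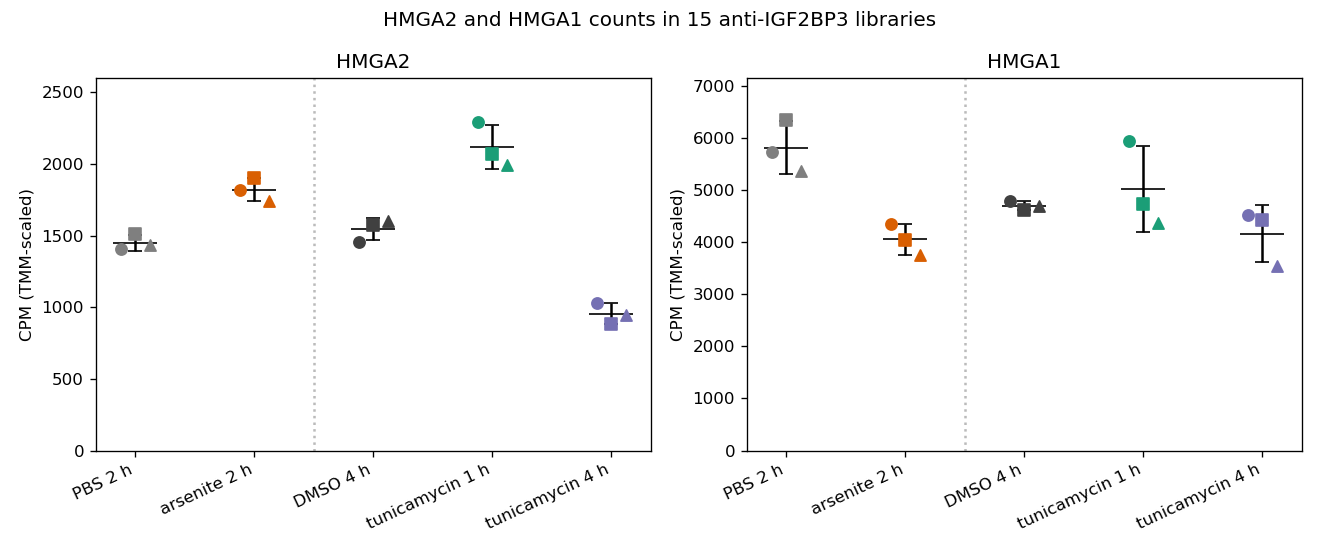
Levels of HMGA2 (left) and HMGA1 (right) in CPM, TMM-scaled, in the 15 anti-IGF2BP3 libraries, 3 per condition; circles, squares and triangles are replicates 1, 2 and 3, long bars the mean and whiskers the SD, and a dotted line parts the arsenite from the tunicamycin experiment. HMGA2 is highest at tunicamycin 1 h (1993 to 2291 CPM) and lowest at tunicamycin 4 h (885 to 1032 CPM), and HMGA1 has its lowest mean with arsenite (4057 CPM), although the lowest single library is of tunicamycin 4 h (3538 CPM).

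In gene counts, arsenite moved the pair in opposite directions. HMGA2 had 1404, 1510 and 1437 CPM in the PBS libraries and 1820, 1901 and 1739 CPM with arsenite. HMGA1 had 5736, 6357 and 5368 CPM in PBS and 4355, 4053 and 3764 CPM with arsenite. For both genes the groups did not overlap, which held for 40.8% of the 7558 genes. HMGA2 rose from 1450 ± 54.1 to 1820 ± 80.8 CPM (SD, n = 3), 1.26-fold or 0.34 on the log2 scale (SE 0.065, edgeR adjusted p 9.87e-06 over 6642 genes). HMGA1 fell from 5820 ± 500.0 to 4057 ± 296 CPM, to 0.702-fold or -0.51 on the log2 scale (SE 0.052, edgeR adjusted p 6.68e-16). A call alone sets neither gene apart, since 34.8% of the genes passed the threshold of 0.05, 17.6% higher and 17.1% lower. By size, HMGA2 ranked 1881st among the most positive changes and HMGA1 1073rd among the most negative. In counts of reads inside called clusters, an alternative chosen after the data were seen, neither passed. There HMGA2 was at 0.28 (SE 0.19, edgeR adjusted p 0.439) and HMGA1 at -0.72 (SE 0.27, edgeR adjusted p 0.137), and 11.4% of 2821 genes passed. The median log2 fold change over all genes was 0.30 in cluster reads and -0.001 in gene counts. HMGA2 was therefore not above the typical gene in cluster reads.

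**Figure D2:**
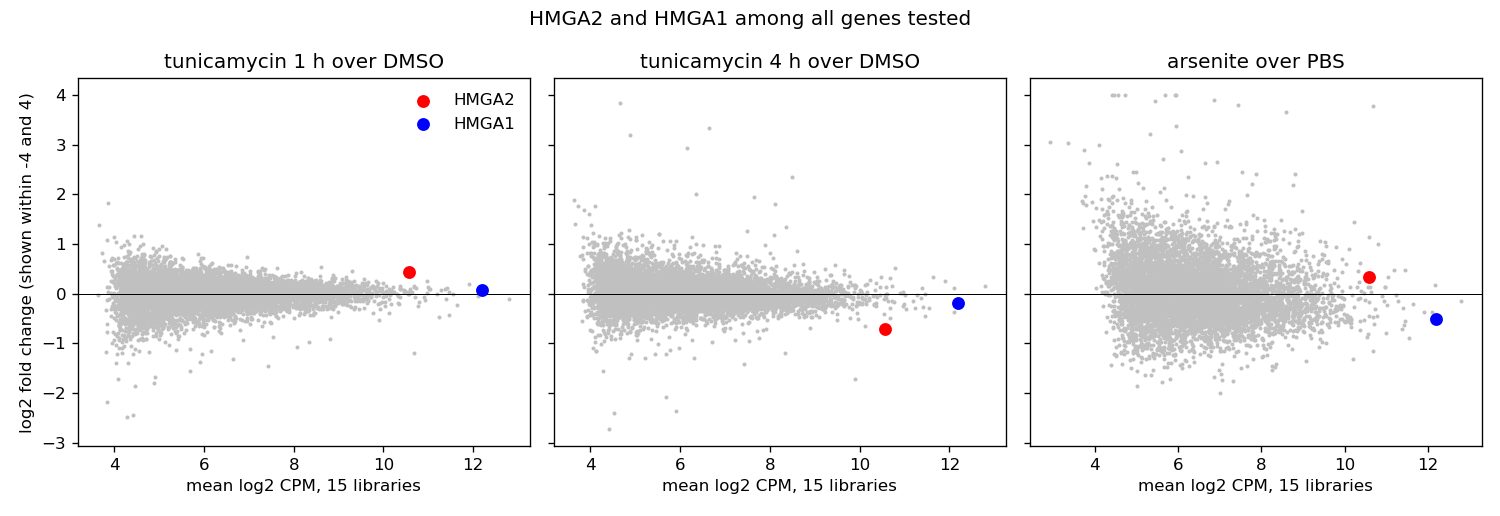
Log2 fold change (y axis, with values beyond its ends drawn at them) against mean log2 CPM over 15 libraries (x axis) for all genes tested in each comparison (grey), with HMGA2 in red and HMGA1 in blue. Both genes lie among the most abundant; HMGA2 is at 0.44 for tunicamycin 1 h, -0.71 for tunicamycin 4 h and 0.34 for arsenite, and HMGA1 at 0.08, -0.18 and -0.51.

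Across the 5 conditions the mean level of HMGA2 was ordered TM 4 h, PBS, DMSO, arsenite and TM 1 h from low to high. Only PBS and DMSO, neighbours in that order, had overlapping libraries. Each step between neighbours crosses the arsenite and tunicamycin experiments, where library set and condition cannot be told apart. The share of all genes without overlap is not given for such steps, so the order is a description. HMGA1 was ordered arsenite, TM 4 h, DMSO, TM 1 h and PBS, and neighbours overlapped in all steps except that from TM 4 h to DMSO. That step lies within the tunicamycin experiment, where the groups did not overlap in 21.2% of all genes. By mean CPM over the 15 libraries HMGA1 was the 2nd of 7558 genes (4754 CPM) and HMGA2 the 33rd (1577 CPM). These ranks are not per length, so the levels of the 2 genes are not compared with each other.

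Within a library the ratio of HMGA2 to HMGA1 counts needs no scaling factor, and it separated arsenite from PBS. The ratio was 0.245, 0.237 and 0.268 in PBS and 0.418, 0.469 and 0.462 with arsenite. Every arsenite library lay above every PBS library. Each gene alone also separated these groups, and groups did not overlap in 40.8% of the 7558 genes. No share over other pairs of genes is given for the ratio. On the log2 scale, with 0.5 added to both counts, the mean was -2.0 ± 0.089 in PBS and -1.15 ± 0.090 with arsenite (SD, n = 3), a difference of 0.85. A two-sided exact permutation test gave p = 0.1, which is the lowest value possible with 3 libraries per group, and 0.15 after Benjamini-Hochberg adjustment over 3 such tests. In the other conditions, as a description, the log2 ratio was -1.61 ± 0.096 in DMSO, -1.23 ± 0.13 after 1 h of TM and -2.12 ± 0.21 after 4 h. The 3 TM 1 h libraries lay above, and the 3 TM 4 h libraries below, the DMSO libraries. That order restates the pattern for which HMGA2 was chosen.

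**Figure D3:**
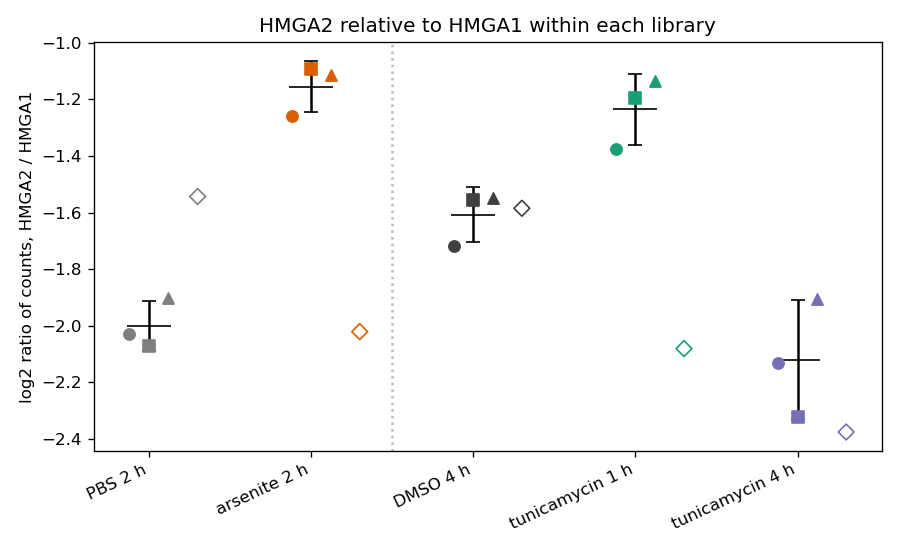
Log2 ratio of HMGA2 to HMGA1 counts in each library (y axis) by condition; filled circles, squares and triangles are replicates 1, 2 and 3 with mean and SD, open diamonds the single IgG library of the condition. Arsenite (mean -1.15) and tunicamycin 1 h (-1.23) lie above their controls, PBS (-2.0) and DMSO (-1.61), and tunicamycin 4 h (-2.12) lies below DMSO.

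The IgG libraries gave few counts of either gene, but a similar share. HMGA2 had 23 counts in the IgG library of PBS, 8 in that of arsenite, 8 in that of DMSO, 6 in that of TM 1 h and 10 in that of TM 4 h. HMGA1 had 68, 34, 25, 27 and 54 counts in the same order. As a share of all gene counts, HMGA2 made up 0.0854 to 0.131% of the IgG libraries (median 0.100%) and 0.0862 to 0.217% of the anti-IGF2BP3 libraries (median 0.154%), and HMGA1 0.318 to 0.468% (median 0.389%) and 0.350 to 0.613% (median 0.452%). These ranges overlap, and the shares in IgG are loose. For HMGA2 in the IgG library of DMSO, 0.102% had a 95% Clopper-Pearson interval of 0.0439 to 0.200%, which covers counting error only. In edgeR's comparison over all 20 libraries with condition as a covariate, HMGA2 was higher with the antibody by 1.11 on the log2 scale (SE 0.18, adjusted p 2.87e-07) and HMGA1 by 0.84 (SE 0.11, adjusted p 6.71e-13), where 7.93% of 7592 genes were called higher. The median over all genes was 0.71 in that fit. With library totals as the scaling the median was 0.07, HMGA2 was at 0.43 (edgeR adjusted p 0.347) and HMGA1 at 0.20 (edgeR adjusted p 0.518), so the calls rested on the scaling, and 0.105% of genes were called higher. Within the library set that holds the IgG libraries of the tunicamycin groups, HMGA2 was at 1.29 (edgeR adjusted p 0.00969) and HMGA1 at 0.72 (edgeR adjusted p 0.0568).

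The clusters, called by the authors in each library, placed nearly all reads at the gene ends. HMGA2 had 253 clusters in the 15 anti-IGF2BP3 libraries, 11 to 23 per library, and HMGA1 had 90, 3 to 11 per library. The last 3100 bases of HMGA2 held 13734 of its 13780 cluster reads (99.7%), although the gene spans 141832 bases. The other 9 clusters held 46 reads. The last 1400 bases of HMGA1 held 42349 of 42555 cluster reads (99.5%). No cluster lay on the opposite strand of either gene. Clusters accounted for 70.5 to 94.6% of the gene count of HMGA2, lowest in the shallowest library, and for 94.5 to 99.9% of that of HMGA1.

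Overlapping clusters of HMGA2 merged into 14 regions, of which 3 were found in all 15 libraries. They were chr12:65963619-65964278 with 28.8% of the cluster reads, chr12:65964296-65965069 with 53.0%, and chr12:65965192-65966231 with 15.5%. The middle one of them held the most reads in each condition. The middle region held 55.6 ± 0.753% of the reads in PBS, 52.6 ± 1.20% with arsenite, 54.5 ± 3.21% in DMSO, 52.3 ± 4.97% after 1 h and 55.2 ± 2.10% after 4 h of TM (SD, n = 3). The region nearest the start of this stretch held 29.7 ± 2.77, 30.2 ± 1.18, 27.4 ± 2.09, 29 ± 0.971 and 29.2 ± 2.71% in the same order. The last region held 13.4 ± 0.703% in PBS and 15.0 ± 0.896% with arsenite, and 15.7 ± 1.71% in DMSO, 16.7 ± 2.70% after 1 h and 12.7 ± 1.59% after 4 h of TM. These shares were not tested. The arsenite and PBS libraries did not overlap in the middle region (51.4 to 53.8% against 55.2 to 56.5%). Nor did they in the last, where the highest PBS and the lowest arsenite library were nearly equal (14.03% in both after rounding). PBS libraries held 134 to 499 cluster reads of HMGA2 and the arsenite libraries 613 to 1740. The part of depth in these differences was not tested, and no share over all genes is given for them. The lowest TM 1 h and highest TM 4 h libraries of the last region overlapped (13.7 and 13.9%).

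**Figure D4:**
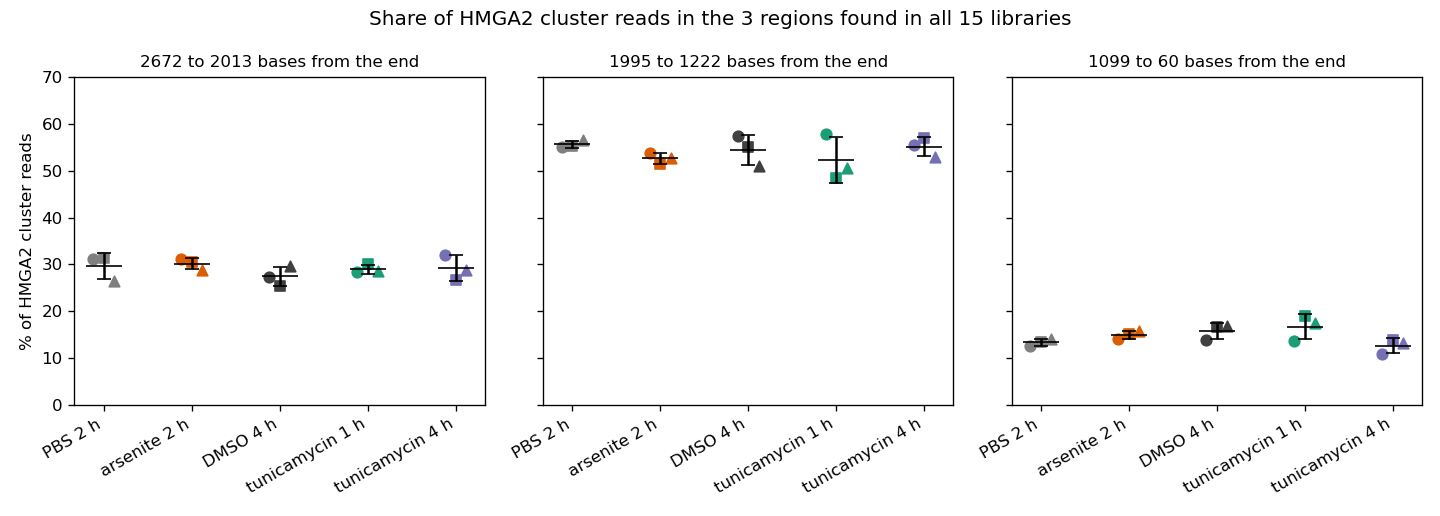
Share of the HMGA2 cluster reads of a library (y axis, %) in each of the 3 regions found in all 15 libraries, named by their distance in bases from the end of the gene; symbols are replicates 1, 2 and 3, with mean and SD. The middle region holds 52.3 to 55.6% of the reads in the mean of every condition, with arsenite below PBS in all libraries. Arsenite libraries held more HMGA2 cluster reads than those of PBS, and the part of depth was not tested.

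HMGA1 had 1 region in all 15 libraries, chr6:34244841-34246231, which runs to the end of the gene and held 99.5% of its reads. It held 98.1 ± 0.154% with arsenite and 100% in PBS. In the tunicamycin experiment it held 99.85 ± 0.162% in DMSO, 99.95 ± 0.0793% after 1 h and 99.85 ± 0.260% after 4 h of TM (SD, n = 3). The remaining reads lay in 5 small regions, among them chr6:34236907-34236955, 34 bases from the start of the gene, with clusters in 6 libraries. Gene counts ran from 414033 to 1098488 in the arsenite libraries and from 130478 to 423906 in those of PBS, so depth overlapped. The part of depth in the difference between arsenite and PBS was not tested.

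The 30 bases with the highest estimated density of cluster reads are shown for each gene, again from the cluster sequences. For this estimate each cluster's reads were spread evenly over its length and libraries were weighted equally. Positions within a cluster are therefore not resolved. CAAT and CATT are in capitals, elements of the CA-rich kind that IGF2BP proteins are known to favour.
HMGA2, chr12:65964381-65964410: aaagacctgaataccacttacctcaaatta
HMGA1, chr6:34245866-34245895: ttttttgttCAATgttcCATTcttcgacat
The HMGA2 window lies 1910 bases before the gene's end in the middle region, and the HMGA1 window 365 bases before its end. Both windows had clusters in all 15 libraries. Over the covered bases, CATT occurred 6.03 times per 1000 in HMGA2 and 4.31 in HMGA1, against 8.54 over all 412123 clusters. CACA occurred 6.03 and 5.03 times against 6.78, CAAT 5.32 and 2.16 against 4.01, and GGAC, the core of the DRACH methylation motif, 2.84 and 4.31 against 2.43. Of these 4 elements only GGAC was denser in both genes than over all clusters, on 8 matches in HMGA2 and 6 in HMGA1. The covered bases of a gene were counted once, while overlapping clusters of different libraries were each counted. These measures are unlike, so no excess is read from them. The covered bases of HMGA2 were 35.9% G or C and those of HMGA1 60.5%, with 42.9% over all clusters.

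The let-7 seed match (CTACCTC) occurred 1.42 times per 1000 covered bases in HMGA2 (4 matches) and 0.719 times in HMGA1 (1 match). Over all clusters the density was 0.0846. These measures are unlike, since a gene's covered bases were counted once and overlapping clusters of different libraries were each counted. Of the HMGA2 clusters 42 of 253 (16.6%) held it, where 1.34% of all clusters of the same lengths did, and of the HMGA1 clusters 15 of 90 (16.7%), against 8.96%. Clusters of different libraries overlap, so these are few sites seen many times. The matches 1743 and 478 bases before the end of HMGA2 lay in clusters of all 15 libraries, with 26 to 806 and 8 to 169 reads in the cluster. The match 1331 bases before the end had clusters in 9 libraries, and the match 2978 bases before the end in 3 (1 each of DMSO, TM 1 h and TM 4 h, with 7 to 13 reads). The HMGA1 match lay in clusters of all 15 libraries, with 29 to 5603 reads.

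**Figure D5:**
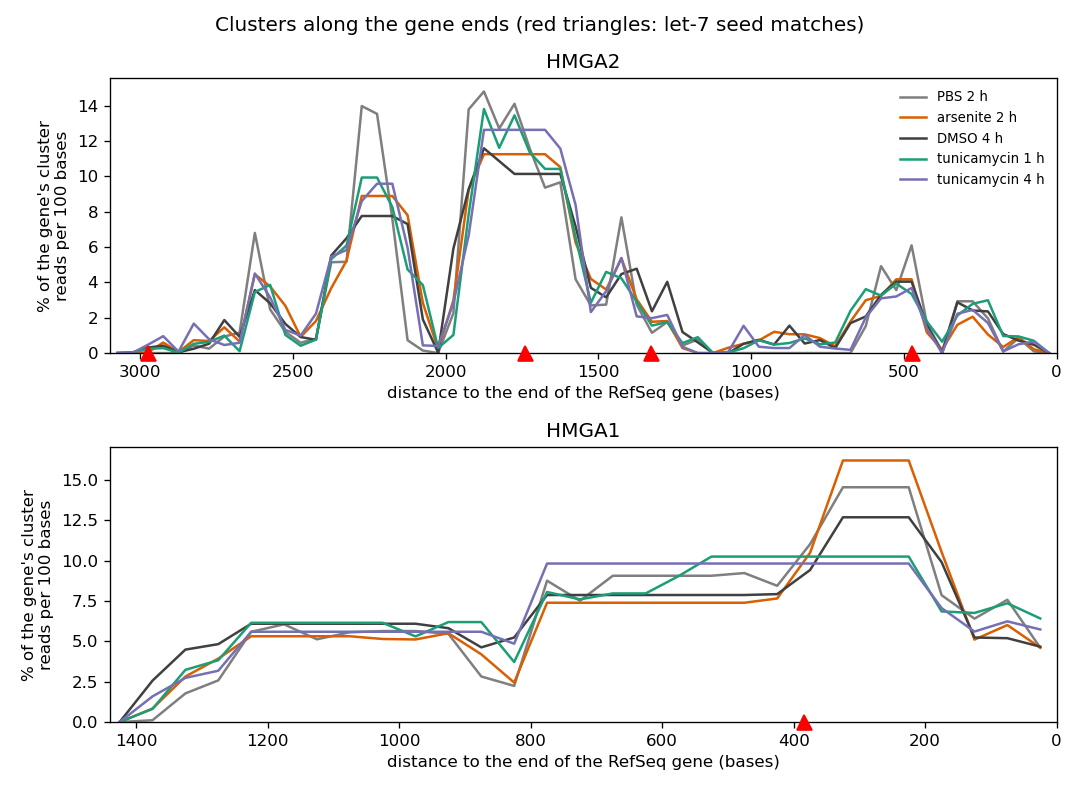
Share of a gene's cluster reads per 100 bases (y axis, %) by distance to the end of the gene (x axis, bases), spread evenly over each cluster and averaged over the 3 libraries of a condition, for HMGA2 (top) and HMGA1 (bottom); red triangles mark let-7 seed matches. In HMGA2 the reads of all 5 conditions lie mostly in the same 3 regions. In HMGA1 the PBS, arsenite and DMSO lines peak near the end of the gene, where the tunicamycin lines are flat. Lines are flatter where called clusters are longer, so they do not resolve where reads lie within a cluster. The longest HMGA1 cluster of a library had 509 to 814 bases with tunicamycin and 261 to 1382 in the other groups. A difference in position was not tested. Of the HMGA2 matches, 2 of the 4, 1743 and 478 bases before the end, lie in clusters of all 15 libraries.

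Conversion, the share of T-to-C changes in all conversion and non-conversion events of a gene's clusters, is another measure than the count. HMGA2 had 7.59, 8.59 and 7.76% in PBS and 8.12, 8.09 and 8.05% with arsenite, so the arsenite values lay within the PBS range. The difference in means was 0.106 percentage points (two-sided exact permutation p 0.9). This depended on the clusters counted. Among clusters with at least 10 reads HMGA2 had 7.65, 7.77 and 7.60% in PBS and 7.97, 8.03 and 8.03% with arsenite, all of them above PBS, and the means differed by 0.342 points (exact permutation p 0.1, the lowest possible). As a mean of the clusters' own shares the difference was 0.583 points (exact permutation p 0.5). HMGA1 had 7.75, 8.10 and 8.02% in PBS and 8.71, 8.58 and 8.24% with arsenite. All arsenite values lay above PBS, by 0.557 points in the mean (2.59 points as a mean of the clusters' own shares), with an exact permutation p of 0.1, the smallest possible, and 0.15 adjusted over 3 tests. Over all clusters the share rose alongside, with means of 8.01% in PBS and 8.70% with arsenite. In the tunicamycin experiment HMGA2 had 7.76 ± 0.0834% in DMSO, 7.75 ± 0.282% after 1 h and 8.31 ± 0.494% after 4 h of TM, and HMGA1 7.74 ± 0.106, 7.85 ± 0.425 and 7.92 ± 0.769% (SD, n = 3).

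The IgG libraries had no cluster on HMGA2. They had 10 clusters on HMGA1, at least 1 in each of the 5 libraries, with 4 to 25 reads, 7 of them 320 to 388 bases before the gene's end. Of the 10, 5 clusters, 1 in each library, overlapped the 30 bases of highest estimated density in the anti-IGF2BP3 libraries. The cluster lists of the PBS and arsenite IgG libraries carry each other's names. The list attached to arsenite held 35 HMGA1 reads against a gene count of 34.

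Reads of HMGA1 are hard to place, because the genome holds processed copies of it. Of 8 HMGA1 pseudogenes in RefSeq all had clusters in the anti-IGF2BP3 libraries, 645 clusters with 30878 reads, and 328 of them had a sequence identical to a stretch of the covered HMGA1 sequence. HMGA1P3 held 17287 of these reads. For each HMGA1 cluster read there were 0.692 ± 0.0293 pseudogene reads in PBS, 0.713 ± 0.0500 with arsenite, 0.707 ± 0.0772 in DMSO, 0.693 ± 0.0402 after 1 h and 0.734 ± 0.0180 after 4 h of TM (SD, n = 3). The counts of HMGA1 are therefore uncertain in level, while this ratio moved little between conditions. HMGA2 overlaps RPSAP52, HMGA2-AS1 and HMGA2-AS2 in RefSeq, and HMGA1 overlaps LOC124901225 and MIR6835.

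Other genes of the let-7 and oncofetal axis and other high mobility group genes were counted through clusters, because the gene table gives identifiers without symbols. Of 32 genes on the let-7 list, the pair included, 22 had clusters and 10 had them in all 15 libraries. Of the 12 tested against PBS 0 were called with arsenite by edgeR, where 8.54% of all 2821 genes were called higher and 2.84% lower. At an unadjusted p under 0.05, 0 were higher and 3 lower (HMGA1, CCND1 and CDK6), where 17.3% of all genes were higher and 7.3% lower. Their median log2 fold change was -0.15, against 0.30 over all genes tested. After HMGA1 (42555 reads) the most reads lay on CCND1, a cyclin of the G1 phase, with 27019, and on CDK6, its partner kinase, with 7252 against 13780 for HMGA2. CCND1 went from 5915 ± 622 to 3686 ± 781 cluster CPM with arsenite (log2 -0.68, SE 0.20, edgeR adjusted p 0.0614), and CDK6 from 1194 ± 14 to 833 ± 46.3 (log2 -0.52, SE 0.17, edgeR adjusted p 0.0833). Neither passed the threshold. Among others with clusters in every library, MYC, NRAS and PLAGL2 were between -0.05 and 0.16 on the log2 scale, E2F6 was at -0.26 (SE 0.52) and MDM4 at -0.70 (SE 0.58), and none of these passed (edgeR adjusted p from 0.518 to 0.960). No cluster lay on LIN28A or LIN28B, which block let-7 maturation, on IGF2BP1, or on CCND2, and IGF2BP3's own mRNA had 806 reads in 12 libraries.

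Of 13 high mobility group genes 12 had clusters and 5 had them in all 15 libraries. Among 8 tested with arsenite by edgeR 0 were called higher and 1 lower, against the same shares of all genes. At an unadjusted p under 0.05, 0 were higher and 2 lower (HMGN4 and HMGA1). The median was -0.49. The gene called was HMGN4, a nucleosome-binding protein, which fell from 599 ± 78.0 to 317 ± 41.4 cluster CPM (log2 -0.93, SE 0.25, edgeR adjusted p 0.0433). HMGB1, an abundant DNA-bending protein, was at -0.55 (SE 0.27, edgeR adjusted p 0.240). HMGA2, at 0.28, had the most positive value of the 8, where the median over all genes tested was 0.30.

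The genes whose levels ran most like the pair's over the 15 libraries were sought among 3337 with a mean count of at least 50, by Pearson's r of log2 CPM, as a description over libraries that share their conditions and sets. For HMGA2 they were ENSG00000164484_12 (r 0.907) and ENSG00000075618_18 (r 0.904). The first had 115 ± 17.6 CPM in DMSO, 174 ± 31.0 after 1 h and 82.3 ± 14.1 after 4 h of TM (SD, n = 3). For HMGA1 they were ENSG00000089693_11 (r 0.871), with 1088 ± 20.9 CPM in PBS and 725 ± 13.1 with arsenite, and ENSG00000203499_12 (r 0.862). ENSG00000089693_11 had 923 ± 88.6 CPM in DMSO, 1039 ± 149 after 1 h and 879 ± 82.1 after 4 h of TM. Over the 9 tunicamycin libraries alone r was 0.88 for ENSG00000089693_11 and 0.66 for ENSG00000203499_12. The pair itself had an r of 0.24, and HMGA1 ranked 853rd in likeness to HMGA2. No symbol is paired with these identifiers in the files.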

How the data were processed

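Counts of 19962 genes in 15 anti-IGF2BP3 and 5 IgG libraries were used as deposited, with 1711 genes at 0 throughout. The authors also deposited clusters per library with read counts and counts of conversion events. The submitters' processing notes name bcl2fastq 2.20.0.422, UMI-tools 1.1.1, Trimmomatic 0.30, Bowtie 0.12.7, featureCounts 2.0.1 and the builds hg38 and GRCh38.p13. How reads of near-identical genes were assigned, and the cluster caller, are not given in the sources used here. In the files every cluster had at least 2 reads and 2 conversion locations.

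Counts were fitted with edgeR 4.0.16 in R 4.3.3 (filterByExpr, TMM, quasi-likelihood test, two-sided, Benjamini-Hochberg over all genes tested, threshold 0.05), and the fit was tested on simulated data. The SE is the log2 fold change divided by the square root of F. DESeq2 1.42.0, other scalings and filters, and leaving out each library were alternatives. CPM over 15 libraries used a prior count of 2 where logged. Exact permutation tests used scipy 1.17.1. All 15 replicate pairs differed by more than sampling noise (largest chi-square p 8.8e-23). Clusters were assigned by strand and RefSeq GRCh38.p14 span. All 533 clusters inside RefSeq promoter sequences were identical to them, counting from 1.

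The members, the gene lists and the tests were chosen with earlier results of these data known. HMGA2, HMGA1, the list genes and 2 genes per member by correlation were named. Identifiers are paired with symbols in no table used here, so lists were read through clusters. The labels give arsenate in the protocol and arsenite in the titles, which were followed, as was the treatment time of each sample. They state more than 1 RNase concentration without saying which library received which.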

Additional observations from a re-analysis of the deposited data

Results flagged for a closer look

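HMGA2 moved in opposite directions at the tunicamycin time points, with a log2 fold change against DMSO of 0.44 at TM 1 h and -0.71 at TM 4 h. All 3 libraries of TM 1 h lay above DMSO and all 3 of TM 4 h below it, the pattern for which the gene was chosen, and both comparisons share the DMSO libraries. HMGA2 also moved in opposite directions under TM 4 h (-0.71) and arsenite (0.34), each against its own control. The libraries of the groups did not overlap in either comparison. Groups did not overlap in 15.7% of 7558 genes at TM 1 h, in 21.2% at TM 4 h and in 40.8% with arsenite. In cluster reads the arsenite value of HMGA2 was 0.28, not above the median of 0.30 over all genes tested. The difference between the TM 4 h and arsenite effects was not tested.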

How the results depend on the processing

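With arsenite, the log2 fold changes of both genes kept their direction and stayed past the threshold in 12 of 13 alternatives each. With 1 library left out HMGA2 lay between 0.32 and 0.39 and HMGA1 between -0.56 and -0.45. The exception was the count of cluster reads, at 0.28 (edgeR adjusted p 0.439) for HMGA2 and -0.72 (edgeR adjusted p 0.137) for HMGA1, and the cause was not tested. In cluster reads the median over all genes was 0.30, so HMGA2 was not above the typical gene there. HMGA2 ran from 0.39 to 0.50 at TM 1 h and from -0.77 to -0.67 at TM 4 h. HMGA1 ran from -0.05 to 0.17 and from -0.25 to -0.07. The log2 ratio of the pair differed between arsenite and PBS by 0.81 to 0.90. The difference in HMGA2 conversion was 0.342 points among clusters with at least 10 reads, with the groups apart, and 0.583 as a mean of the clusters' shares. It ranged from -0.0914 to 0.413 points with 1 library left out, and turned negative without PBS replicate 1 and, at -0.0035, without PBS replicate 3.

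Against IgG with library totals, HMGA2 was at 0.43 (edgeR adjusted p 0.347) and HMGA1 at 0.20 (edgeR adjusted p 0.518), and HMGA1 within one library set at 0.72 (edgeR adjusted p 0.0568). The HMGA2 clusters merged into 8 regions with at least 10 reads per cluster and into 22 where overlaps had to cover at least 0.5 of the shorter cluster.

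The numbers of genes called, behind the background shares, moved more. With arsenite there were 2310, with DESeq2 1233 and at a mean count of at least 50 1380, and 1714 to 2392 with 1 library left out. At TM 1 h there were 46, with DESeq2 6 and within replicates 1 and 2 16, and 13 (without DMSO replicate 3) to 41 with 1 library left out, among them 17 without TM 1 h replicate 2 and 23 without TM 1 h replicate 1. At TM 4 h there were 426, with DESeq2 151, within replicates 1 and 2 129, and 178 (without DMSO replicate 3) to 431, among them 247 without TM 4 h replicate 3. Between the time points there were 967, with DESeq2 502, within replicates 1 and 2 488, and 523 (without TM 1 h replicate 3) to 859.

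The replicate numbers did not pair the libraries, since the correlations of deviations lay between -0.115 and 0.0853. With the replicate number as a block HMGA2 was at 0.32 and HMGA1 at -0.51 with arsenite, HMGA2 at 0.43 and -0.71 at TM 1 h and 4 h, and 2111, 43, 371 and 902 genes were called in the 4 comparisons. Depth limits the IgG libraries most, with 6 to 23 counts of HMGA2.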
